A study of Mus musculus with 16 samples.

Results

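Hepatic stellate cells are the vitamin A-storing mesenchymal cells of the liver, and 10 genes that mark them (Pdgfrb, Pdgfra, Dcn, Rgs5, Ngfr, Nes, Des, Reln, Lrat and Ecm1) were followed here among the 54838 genes counted in whole liver. The 10 were taken by symbol from a list of stellate genes, and all 10 were found. No threshold was set on their values, but they were chosen with earlier results of these data known. Messenger RNA was sequenced from snap-frozen whole liver of male wild-type C57BL/6J mice, in 16 samples of 4 groups that share this genotype, strain and sex. In the injection experiment, 3 samples came from livers taken 3 days after an intraperitoneal dose of 2 µL per g body weight of a 1:1 mix of carbon tetrachloride (CCl4, a solvent that injures hepatocytes) and olive oil, and 3 from livers taken 3 days after 2 µL per g of olive oil alone. In the surgical experiment, 5 samples were liver resected at partial hepatectomy (PH day 0) and 5 were liver 3 days after it (PH day 3). The age of the mice is not given in the sources used here, and no label states that each sample is a separate animal, so the spread behind each p-value may be partly technical.

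In the quiescent liver the stellate cell lies between the sinusoidal endothelium and the hepatocytes, where it stores retinyl esters in lipid droplets. After injury the cell can lose its droplets, divide, migrate towards platelet-derived growth factor (PDGF) and turn into a matrix-producing myofibroblast. Stellate cells also release growth factors that act on hepatocytes, and their number and state are followed both in fibrosis and in regrowth of the liver. Of the 10 genes, Pdgfrb, Pdgfra and Ngfr encode receptors, Lrat encodes the enzyme that makes retinyl esters, Des and Nes encode intermediate filament proteins, Rgs5 encodes a regulator of G protein signalling, and Dcn, Reln and Ecm1 encode secreted proteins. In bulk liver, fewer cells of a type and less RNA per cell cannot be told apart.

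Total counts per sample were 4738196 to 6218526 in CCl4 and 4295169 to 5221957 in olive oil. After hepatectomy they were 3271398 to 8647503 on day 0 and, below all CCl4 samples, 2795909 to 4391002 on day 3. Levels below are CPM (counts scaled to a common library total), adjusted between libraries by the trimmed mean of M values (TMM), and 3 counts in 1 library, used here as the detection floor, correspond to 0.372 to 1.02 CPM. PH day 3 replicates 12 and 14 stood apart: the summed level of 6 skeletal muscle genes was 2508 and 218 CPM there, against at most 2.34 CPM in each of the other 14 libraries. The PH calls of the members and of the gene lists are therefore also given without these 2 libraries where that changes them, an alternative chosen after the data were seen. Values of 3 samples are given in the order of replicates 1 to 3, those of PH day 0 in the order of replicates 16, 12, 13, 14 and 15, and those of PH day 3 in the order of replicates 12 to 16. A gene is said to rise or fall where edgeR's quasi-likelihood test gave a Benjamini-Hochberg adjusted p under 0.05 over all genes tested.

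3 days after CCl4, both PDGF receptor genes and Dcn rose and Ecm1 fell, 4 of the 9 members that passed the filter on low counts. The 3 rises stand beside 11.3% of all 11337 tested genes that rose, and the 1 fall beside 11.6% that fell. In either direction, 22.9% of tested genes were called. The median log2 fold change of the 9 members was 0.95, against 0.006 for all tested genes. Without CCl4 replicate 1 the call count was 7, with Ngfr, Nes and Reln called in addition. Nes passed the filter in that fit, where 1677 of all 11741 tested genes rose and 1836 fell.

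**Figure D1:**
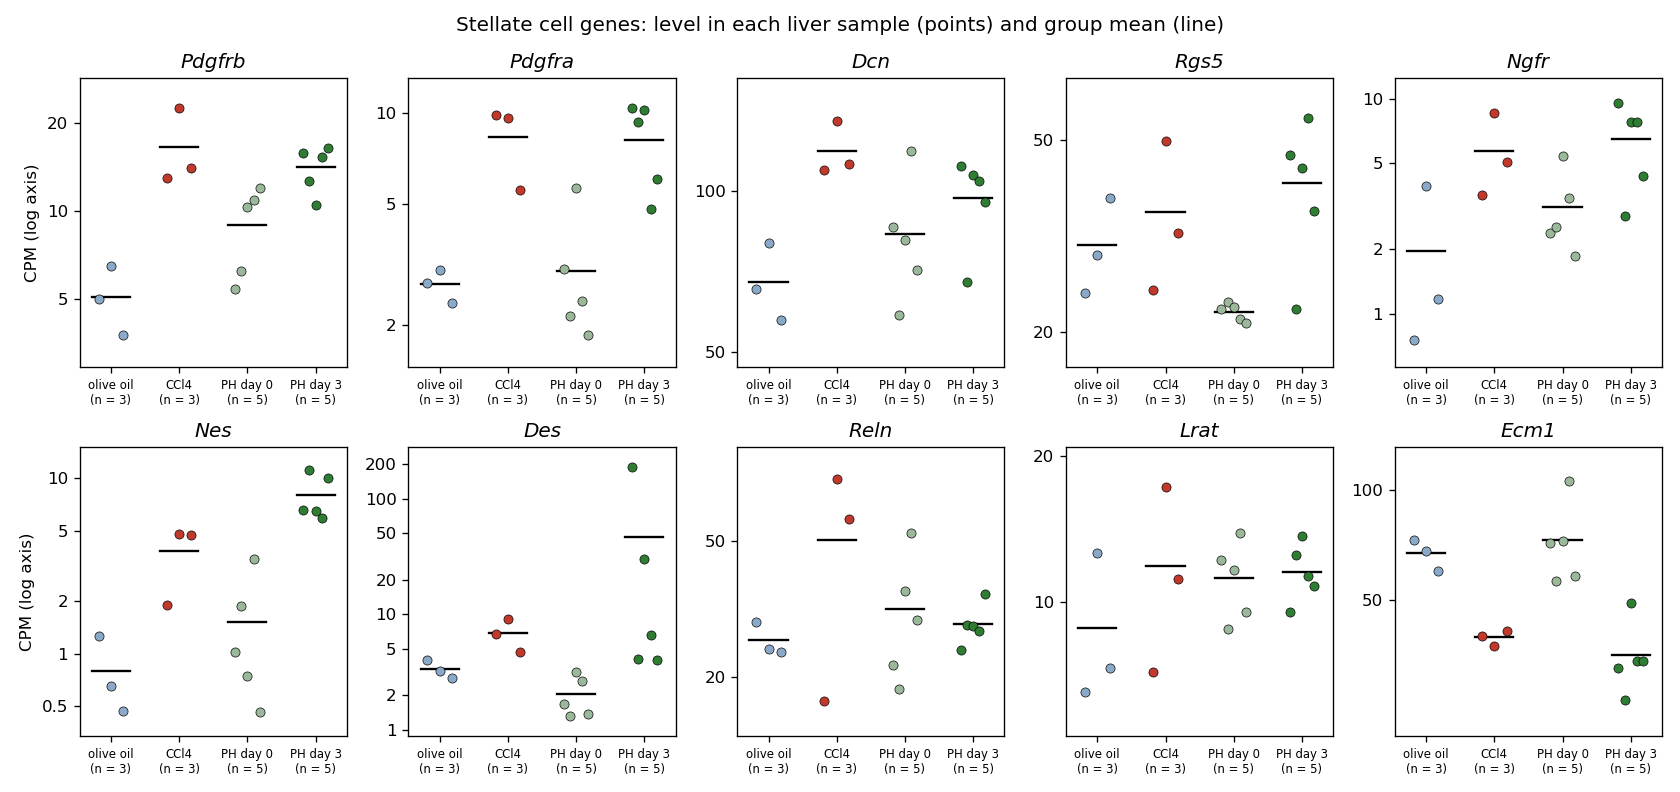
Each panel plots 1 gene, with CPM on a log axis and the 4 groups (olive oil and CCl4, n = 3 each; PH day 0 and PH day 3, n = 5 each) along the horizontal axis; points are samples and lines are group means. Ecm1 lies lower in both challenged groups than in their own controls without overlap. All other members except Reln lie higher on average in both, and Lrat overlaps in both comparisons.

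After partial hepatectomy, 5 of 10 members rose (Pdgfrb, Pdgfra, Rgs5, Ngfr and Nes) and Ecm1 fell. Of all 10546 genes tested, 9.73% rose and 8.01% fell, 17.7% in either direction. The median log2 fold change of the 10 members was 0.80, against -0.005 for all tested genes. Without both libraries that hold muscle transcripts, 3 of the 10 members were still called, namely Rgs5, Nes and Ecm1. In that smaller fit 837 of all 10887 tested genes rose and 645 fell, and the members' median log2 fold change was 0.72.

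The promoters of 4 members are shown because the results turn on these genes: Nes and Pdgfra rose most after hepatectomy among the called members, Ecm1 fell in both experiments, and Des moved with muscle transcripts. Each run is the 250 bases upstream of the RefSeq transcription start in GRCm38.p6, 5′ to 3′ on the gene's strand, with capitals marking any match to 3 short words on either strand. The words are the TATA box TATAAA, the CCAAT box and the GC box, whose letters GGGCGG read as their reverse complement on the other strand. RefSeq promoters matched 8 of the 10 members, all but Pdgfrb and Dcn.
Nes, chr3:87970843-87971092, plus strand: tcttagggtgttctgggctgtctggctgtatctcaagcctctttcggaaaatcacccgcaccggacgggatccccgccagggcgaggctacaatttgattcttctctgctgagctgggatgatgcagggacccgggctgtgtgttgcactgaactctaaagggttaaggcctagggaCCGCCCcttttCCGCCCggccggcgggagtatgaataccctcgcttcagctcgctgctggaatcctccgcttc
Pdgfra, chr5:75152001-75152250, plus strand: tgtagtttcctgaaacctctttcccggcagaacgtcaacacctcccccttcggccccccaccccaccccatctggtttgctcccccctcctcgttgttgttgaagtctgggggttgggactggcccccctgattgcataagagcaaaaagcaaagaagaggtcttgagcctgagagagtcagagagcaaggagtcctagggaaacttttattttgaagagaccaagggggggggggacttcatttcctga
Ecm1, chr3:95739570-95739819, minus strand: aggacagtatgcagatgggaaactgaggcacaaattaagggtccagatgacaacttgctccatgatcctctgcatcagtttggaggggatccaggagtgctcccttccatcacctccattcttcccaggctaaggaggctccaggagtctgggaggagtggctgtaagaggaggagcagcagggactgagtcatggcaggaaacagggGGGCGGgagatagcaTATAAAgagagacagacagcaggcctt
Des, chr1:75360042-75360291, plus strand: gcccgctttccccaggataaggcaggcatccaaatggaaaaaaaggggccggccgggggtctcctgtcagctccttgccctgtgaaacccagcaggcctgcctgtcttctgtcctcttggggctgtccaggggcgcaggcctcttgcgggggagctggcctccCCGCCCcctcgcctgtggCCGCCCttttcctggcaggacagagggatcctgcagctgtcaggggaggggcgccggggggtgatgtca

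The Ecm1 window holds 1 TATAAA, which begins 27 bases upstream of the start, and 1 GGGCGG. The Nes and Des windows hold 2 GGGCGG matches each, and the Pdgfra window holds none of the marked words. Among 32851 RefSeq promoter windows of the same length, TATAAA occurred in 12.4%, CCAAT in 33.8% and GGGCGG in 32.7%. The CArG box and the MEF2 box, motifs known from muscle gene promoters and searched on both strands, matched none of the 8 member windows and 1.5% and 0.5% of all windows. The word CANNTG (N being any base), searched in the same way and not marked above, occurred in 66.2% of all windows. It had 2 matches each in the Des and Ecm1 windows, 1 in the Pdgfra window and 0 in the Nes window. These matches describe the letters in the window and nothing about what binds there.

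Pdgfrb (chromosome 18, 61045150 to 61085061, plus strand, in GRCm38) encodes the receptor for PDGF-BB, the best known mitogen of stellate cells. Its levels were 5.02, 6.53 and 3.77 CPM in the 3 olive oil samples and 13.1, 22.7 and 14.1 CPM in the 3 CCl4 samples. The lowest CCl4 sample held more than the highest olive oil sample, and the log2 fold change was 1.68 ± 0.32 (SE, n = 3 per group, edgeR adjusted p = 0.00425). That is a 3.20-fold higher level. After hepatectomy the change was smaller and the groups overlapped. Pdgfrb was at 5.42, 6.27, 10.4, 10.9 and 12.1 CPM at PH day 0 and at 15.9, 12.7, 10.6, 15.4 and 16.5 CPM at PH day 3. Replicate 14 at day 3 lay within the day 0 range. The log2 fold change was 0.69 ± 0.23 (SE, n = 5 per group, edgeR adjusted p = 0.0406). This call did not hold without day 0 replicate 16 (adjusted p = 0.0983) or 12 (0.117), or without day 3 replicate 12 (0.0882), 15 (0.0854) or 16 (0.0930), nor in the edgeR fit of all 16 samples (adjusted p = 0.0601). Without both muscle-bearing libraries the log2 fold change was 0.74 (edgeR adjusted p = 0.0693), and over all alternatives the adjusted p ran from 0.0201 to 0.117.

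Pdgfra (chromosome 5, 75152292 to 75198215, plus strand) encodes the receptor with the widest range of PDGF ligands and is also expressed by portal fibroblasts. It stood at 2.76, 3.05 and 2.36 CPM in olive oil and at 9.90, 9.66 and 5.58 CPM in CCl4 samples, so the groups did not overlap. The log2 fold change was 1.59 ± 0.38 (SE, n = 3 per group, edgeR adjusted p = 0.0129). The call was lost without CCl4 replicate 2 (adjusted p = 0.0571) or olive oil replicate 3 (0.0591), over a range of alternatives from 0.00260 to 0.0591. At PH day 0 Pdgfra was at 3.05, 2.13, 5.68, 2.40 and 1.85 CPM and at PH day 3 at 10.4, 9.34, 10.3, 4.83 and 6.07 CPM. Only day 0 replicate 13 overlapped the day 3 range, and the log2 fold change was 1.48 ± 0.35 (SE, n = 5 per group, edgeR adjusted p = 0.00386). The rise kept its call in 19 of 20 alternatives, and without both muscle-bearing libraries it was 1.19 with an edgeR adjusted p of 0.0614 (range over alternatives 0.000497 to 0.0614).

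The ligands of these receptors were measured in the same samples. Of the 4 PDGF genes, Pdgfa and Pdgfc passed the filter, while Pdgfb and Pdgfd were near the floor, with group means of 0.648 to 1.72 CPM and 0.382 to 0.920 CPM. Pdgfc, whose product is activated by proteolysis, rose after CCl4 from 2.57 ± 0.05 to 8.16 ± 4.98 CPM (SD, n = 3 per group), a log2 fold change of 1.64 ± 0.50 (SE, edgeR adjusted p = 0.0384). That call was lost in 7 of 14 alternatives, among them limma-voom (adjusted p = 0.120) and the omission of CCl4 replicate 2 or 3 or of any olive oil sample (0.0877 to 0.166, within 0.00123 to 0.166 over all). Pdgfa, which encodes a ligand of the alpha receptor, rose after hepatectomy from 4.01 ± 1.25 to 10.1 ± 2.18 CPM (SD, n = 5 per group) without overlap, by 1.34 ± 0.28 on the log2 scale (SE, edgeR adjusted p = 0.00114), and was called in all 20 alternatives. After CCl4 its log2 fold change was 1.11 ± 0.42 (SE, edgeR adjusted p = 0.0837), and it passed in 4 of 14 alternatives, among them the omission of CCl4 replicate 1 (adjusted p = 0.00535, in a range up to 0.336). Pdgfc after hepatectomy gave 0.30 ± 0.31 (SE, edgeR adjusted p = 0.569).

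Ngfr (chromosome 11, 95568818 to 95587735, minus strand), the p75 neurotrophin receptor, was among the least abundant members. Its levels were 0.752, 3.92 and 1.18 CPM in olive oil, the first at the floor of 3 counts, and 3.58, 8.55 and 5.09 CPM in CCl4. Olive oil replicate 2 exceeded CCl4 replicate 1, and the log2 fold change of 1.51 ± 0.59 (SE, n = 3 per group) had an edgeR adjusted p of 0.0930. Ngfr passed the threshold in 5 of 14 alternatives, among them the omission of CCl4 replicate 1 (adjusted p = 0.0334) or of olive oil replicate 2 (log2 fold change 2.52, adjusted p = 0.0287), and the adjusted p ran from 0.0241 to 0.316. After hepatectomy it moved from 2.37, 2.53, 5.44, 3.46 and 1.85 CPM to 9.51, 2.85, 7.77, 7.82 and 4.38 CPM. 3 of the 5 day 3 samples lay above every day 0 sample, at a log2 fold change of 1.08 ± 0.37 (SE, n = 5 per group, edgeR adjusted p = 0.0447). The call was lost in 12 of 20 alternatives, with adjusted p from 0.0152 to 0.336. It was lost without day 0 replicate 16, 12, 14 or 15, and without day 3 replicate 12, 14 or 15, where the adjusted p was 0.0664 to 0.145. Without both muscle-bearing libraries it fell to 0.71 (edgeR adjusted p = 0.336).

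Of 8 neurotrophin and receptor genes, 2 were tested after CCl4 and 3 after hepatectomy, and the only call within an experiment was a fall of Sort1 after hepatectomy. Sort1 encodes sortilin, a co-receptor of p75 for precursor neurotrophins, and it fell by 0.70 ± 0.14 on the log2 scale (SE, edgeR adjusted p = 0.000798). Bdnf, which encodes a neurotrophin, was tested only in the fit of all 16 samples, where its responses differed by -3.54 ± 0.93 (log2, CCl4 minus PH, SE, edgeR adjusted p = 0.0254). Its means were 3.61 ± 2.45 CPM in olive oil and 1.14 ± 0.49 in CCl4 (SD, n = 3 each), and 0.775 ± 0.533 at PH day 0 and 2.86 ± 1.79 at PH day 3 (SD, n = 5 each). That call was lost on leaving out CCl4 replicate 2, CCl4 replicate 3, olive oil replicate 1, olive oil replicate 2 or PH day 3 replicate 13, and over its alternatives the adjusted p ran from 0.00389 with DESeq2 to 0.109 with edgeR without olive oil replicate 1. Schwann cells also express Ngfr, and their 6 markers summed to at most 5.28 CPM in any library, with Sox10 at 0 in all 16. These sums were of the order of the Ngfr level itself, at 1.07 to 4.27 CPM at PH day 0 and 0.26 to 5.28 CPM at PH day 3. The part of Schwann cells in the Ngfr result was not tested.

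Nes (chromosome 3, 87971078 to 87980451, plus strand) encodes nestin, a filament protein of progenitor and activated cells, and had the largest called change of the members. It stood at 1.02, 1.87, 0.741, 3.46 and 0.464 CPM at PH day 0 and at 6.57, 11.2, 6.52, 5.98 and 10.1 CPM at PH day 3. Every day 3 sample exceeded every day 0 sample, by a log2 fold change of 2.39 ± 0.41 (SE, n = 5 per group, edgeR adjusted p = 0.000149), and all 20 alternatives kept the call. Nes and Des were the 2 members of 10 higher without overlap after hepatectomy, where 6.5% of tested genes were, and Ecm1 was the 1 lower without overlap, where 6.84% were.

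In the injection experiment Nes held 5, 3 and 2 counts in olive oil and 9, 39 and 29 counts in CCl4 samples, too few to pass the filter. In CPM these were 1.25, 0.653 and 0.471 against 1.90, 4.83 and 4.76, without overlap. With no filter edgeR gave a log2 fold change of 2.24 ± 0.69 (SE, n = 3 per group, adjusted p = 0.0101). Nes entered the test in 7 of the alternatives and passed in 5, but not without olive oil replicate 2 (adjusted p = 0.0857) or 3 (0.0998), with the lowest adjusted p at 0.00525.

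Des (chromosome 1, 75360329 to 75368579, plus strand) encodes desmin, the classical filament marker of rodent stellate cells and also a major protein of muscle. It stood at 1.69, 1.33, 3.21, 2.66 and 1.39 CPM at PH day 0 and at PH day 3 at 188, 4.15, 30.1, 6.67 and 4.05 CPM. The groups did not overlap, but replicates 12 and 14 were far above the other 3. These are the libraries with muscle transcripts: Acta1, the actin of skeletal muscle, was at 845 CPM in replicate 12 and 66.5 CPM in replicate 14, and Ckm, muscle creatine kinase, at 284 and 23.6 CPM. All 6 muscle genes were detected in both, and in the other 14 libraries at most 3 of the 6 were.

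The log2 fold change of Des after hepatectomy was 4.59 ± 1.44 (SE, n = 5 per group) with an edgeR adjusted p of 0.0639. Without day 3 replicate 12 it was 2.48 (edgeR adjusted p = 0.0327), and without both replicates 12 and 14 it was 1.31 (adjusted p = 0.353). Over the 20 alternatives the adjusted p ran from 0.000275, with DESeq2, to 0.353. The other 3 day 3 samples, with 1.01 to 2.34 CPM of muscle genes in sum and Des at 4.05 to 6.67 CPM, lay above all 5 day 0 samples. After CCl4, Des was at 6.74, 9.17 and 4.76 CPM against 4.01, 3.26 and 2.83 CPM in olive oil, again without overlap and with muscle genes at or below 1.18 CPM in sum. That log2 fold change was 1.01 ± 0.38 (SE, n = 3 per group, edgeR adjusted p = 0.0828).

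**Figure D2:**
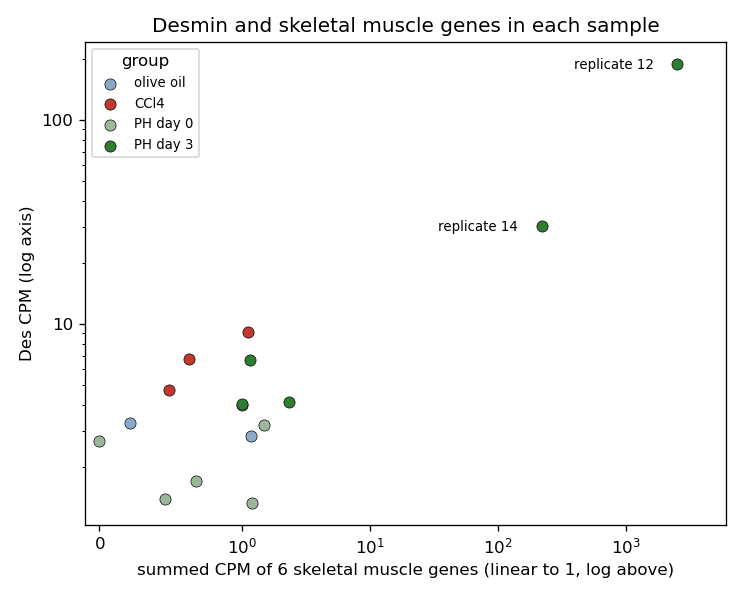
Each point is 1 of the 16 samples, with the summed CPM of 6 skeletal muscle genes (Acta1, Ckm, Myh4, Myh1, Tnnt3, Mylpf) on the horizontal axis, linear up to 1 and logarithmic above, and Des CPM on a logarithmic vertical axis; 1 olive oil point lies behind a PH day 3 point. PH day 3 replicates 12 and 14 lie at 2508 and 218 CPM of muscle genes and at 188 and 30.1 CPM of Des, apart from all other samples.

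Rgs5 (chromosome 1, 169655501 to 169695813, plus strand) is shared by stellate cells and the pericytes of other organs. At PH day 0 its 5 samples were close together, at 22.4, 23.1, 22.5, 21.3 and 20.9 CPM, and at PH day 3 it was at 46.6, 22.3, 43.8, 55.7 and 35.7 CPM. Replicate 13 at day 3 stayed inside the day 0 range while the other 4 lay above it. The log2 fold change was 0.92 ± 0.18 (SE, n = 5 per group, edgeR adjusted p = 0.00106), and all 20 alternatives kept the call. After CCl4 the levels of 24.4, 49.8 and 32.2 CPM overlapped the olive oil levels of 24.1, 28.9 and 37.9 CPM. The log2 fold change of 0.21 ± 0.27 (SE, n = 3 per group, edgeR adjusted p = 0.620) turned to -0.12 without CCl4 replicate 2.

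Genes of smooth muscle cells and pericytes were set beside Rgs5. Of 12 such genes, 4 were tested after hepatectomy: Abcc9, a channel subunit of pericytes, rose by 0.82 ± 0.23 (log2 ± SE, edgeR adjusted p = 0.0159) and Mcam, an adhesion molecule of vessel walls, by 0.86 ± 0.28 (edgeR adjusted p = 0.0343), while Mylk fell by 0.32 ± 0.11 (edgeR adjusted p = 0.0447). The remaining tested gene, Kcnj8, was not called, at -0.42 ± 0.38 (log2 ± SE, edgeR adjusted p = 0.499). The median log2 fold change of the tested genes was 0.25. Without both muscle-bearing libraries the log2 fold change of Abcc9 was 0.73 (edgeR adjusted p = 0.0593) and that of Mcam 0.68 (edgeR adjusted p = 0.205). Mcam was also not called without day 0 replicate 12, 13 or 15 or day 3 replicate 12, 13 or 14, nor Abcc9 without day 3 replicate 12 (adjusted p = 0.0584). After CCl4, 6 were tested and only Mylk was called, lower, a call lost in 8 of 14 alternatives, among them the omission of CCl4 replicate 2 or 3 or olive oil replicate 1 or 2. The summed level of the list was 95.3 to 145 CPM at PH day 3 and 97.1 to 138 CPM at PH day 0, and the part of these cells in the Rgs5 result was not tested.

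Dcn (chromosome 10, 97479609 to 97518143, plus strand) encodes decorin, a small proteoglycan that binds collagen and TGF-beta. It was at 65.7, 79.8 and 57.5 CPM in olive oil and at 109, 135 and 112 CPM in CCl4. The groups did not overlap, and the log2 fold change was 0.79 ± 0.16 (SE, n = 3 per group, edgeR adjusted p = 0.00648), a call kept in all 14 alternatives. After hepatectomy the levels of 111, 67.5, 107, 104 and 95.4 CPM overlapped the day 0 levels of 85.7, 58.7, 80.8, 119 and 71.2 CPM. The Dcn estimate was 0.26 ± 0.19 on the log2 scale (SE, n = 5 per group, edgeR adjusted p = 0.429), which did not pass.

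Ecm1 (chromosome 3, 95734147 to 95739569, minus strand) encodes extracellular matrix protein 1, a secreted glycoprotein that keeps TGF-beta latent in liver and is made by hepatocytes as well as stellate cells. It was at 73.0, 68.3 and 60.1 CPM in olive oil and at 40.0, 37.4 and 41.2 CPM in CCl4. All CCl4 samples were lower, by 0.79 ± 0.14 on the log2 scale (n = 3 per group, edgeR adjusted p = 0.00286). Ecm1 was the 1 member lower without overlap, as were 19.9% of tested genes, and 4 of the 9 tested members were higher without overlap (Pdgfrb, Pdgfra, Dcn and Des), as were 21.8%. Scaling by library size alone, which moved the median log2 fold change of all genes to 0.457, left Ecm1 at -0.34 (edgeR adjusted p = 0.210, the highest of its alternatives, the lowest being 8.19e-05).

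After hepatectomy Ecm1 moved from 71.5, 56.5, 72.7, 106 and 58.4 CPM at day 0 to 32.6, 26.7, 49.1, 34.1 and 34.1 CPM at day 3. Every day 3 sample lay below every day 0 sample, and Ecm1 fell by 1.03 ± 0.19 on the log2 scale (n = 5 per group, edgeR adjusted p = 0.00225), a call kept in all 20 alternatives. The median log2 fold change of 6 hepatocyte genes was -0.10 after CCl4 and 0.06 after hepatectomy. Their summed level was 94430 to 105600 CPM in olive oil and 88670 to 107700 CPM in CCl4, with overlap. Hepatectomy samples had 70910 to 88860 CPM on day 0 and 106300 to 123500 CPM on day 3, higher without overlap, and there Alb (albumin) rose by 0.77 ± 0.11 (log2 ± SE, edgeR adjusted p = 2.41e-05) and Apoa1 (an apolipoprotein) fell by 0.41 ± 0.10 (edgeR adjusted p = 0.00503). With library size scaling alone Apoa1 had an edgeR adjusted p of 0.0518, and in the other 19 alternatives it was called. The part of hepatocytes in the Ecm1 result was not tested.

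Reln (chromosome 5, 21884454 to 22344702, minus strand) encodes reelin, a large secreted glycoprotein that separates stellate cells from portal fibroblasts. It was at 29.1, 24.1 and 23.8 CPM in olive oil and at 17.1, 75.7 and 58.1 CPM in CCl4. CCl4 replicate 1 lay below all 3 controls and replicates 2 and 3 well above them, so that the log2 fold change of 0.95 ± 0.52 (SE, n = 3 per group) had an edgeR adjusted p of 0.255. Without CCl4 replicate 1 it was 1.36 with an edgeR adjusted p of 2.79e-05, and the other alternatives reached 0.529. In that replicate Pdgfrb, Dcn, Rgs5, Ngfr, Nes and Lrat were also the lowest of the 3 CCl4 samples, while Pdgfra was the highest. At PH day 0 Reln was at 21.7, 18.5, 35.8, 52.7 and 29.4 CPM and at PH day 3 at 24.0, 28.5, 28.3, 27.4 and 35.1 CPM. The day 3 samples lay inside the day 0 range, with a log2 fold change of -0.12 ± 0.25 (SE, n = 5 per group, edgeR adjusted p = 0.809).

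Genes that act downstream of reelin were measured at low levels. Dab1, the intracellular adaptor phosphorylated when reelin binds, rose after CCl4 from 1.17 ± 1.01 to 7.16 ± 1.65 CPM (SD, n = 3 per group), a log2 fold change of 2.57 ± 0.65 (SE, edgeR adjusted p = 0.0184). The Dab1 call was lost without CCl4 replicate 3 (edgeR adjusted p = 0.0648, in a range from 3.89e-05). After hepatectomy Dab1 gave 0.89 ± 0.48 (SE, edgeR adjusted p = 0.225). The reelin receptor genes Vldlr and Lrp8 did not pass the filter. Vldlr was at 10.6 CPM in PH day 3 replicate 12, a muscle-bearing library, and at most 1.48 CPM in the other 15 libraries, and Lrp8 had group means of at most 0.487 CPM.

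Lrat (chromosome 3, 82892579 to 82903973, minus strand) encodes lecithin retinol acyltransferase, which makes the stored retinyl esters and marks quiescent stellate cells. It was at 6.52, 12.6 and 7.30 CPM in olive oil and at 7.16, 17.2 and 11.2 CPM in CCl4, with overlap. Its log2 fold change was 0.41 ± 0.37 (SE, n = 3 per group, edgeR adjusted p = 0.463). At PH day 0 it was at 12.2, 8.80, 11.6, 13.9 and 9.50 CPM and at PH day 3 at 9.51, 12.5, 13.7, 11.3 and 10.8 CPM. The day 3 samples lay within the day 0 range, with a log2 fold change of 0.08 ± 0.20 (SE, n = 5 per group, edgeR adjusted p = 0.848).

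Other genes of retinoid handling were set beside Lrat. After CCl4, 2 of 10 tested genes fell (Dhrs3 and Aldh1a1, enzymes of retinal and retinoic acid metabolism). Dhrs3 fell from 158 ± 17.9 to 74.6 ± 23.9 CPM (SD, n = 3 per group), a log2 fold change of -1.11 ± 0.23 (SE, edgeR adjusted p = 0.00673), and scaling by library size alone left -0.62 (adjusted p = 0.148, in a range from 1.23e-08). After hepatectomy, 2 of 11 fell (Rbp4, the plasma retinol carrier made by hepatocytes, and Retsat, a retinol saturase), and Rarb, a retinoic acid receptor gene, rose. Retsat fell by 0.75 ± 0.12 (log2 ± SE, edgeR adjusted p = 0.000132). The edgeR fit of all 16 samples gave Retsat an adjusted p of 0.0978, the highest in its range from 4.78e-13. Aldh1a1 after CCl4 was not called without CCl4 replicate 2 or any 1 olive oil sample, and without CCl4 replicate 1 the number that fell was 4. The list's median log2 fold change was -0.63 after CCl4 and -0.24 after hepatectomy. In the fit of all 16 samples the responses of Dhrs3 differed by -0.84 ± 0.23 (log2, CCl4 minus PH, SE, edgeR adjusted p = 0.0308). Those of Aldh1a1 differed by -1.08 ± 0.30 (edgeR adjusted p = 0.0356). The Dhrs3 call was kept in 13 of 24 alternatives and the Aldh1a1 call in 8 of 24.

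Within a sample, ratios of read counts between members do not depend on scaling. Lrat over Pdgfrb was 1.30 to 1.94 in olive oil and 0.548 to 0.791 in CCl4, without overlap, and in the PH groups 0.789 to 2.25 (day 0) and 0.600 to 1.29 (day 3), with overlap. Ecm1 over Pdgfrb was 10.5 to 15.9 in olive oil and 1.65 to 3.07 in CCl4, and in the PH groups 4.85 to 13.2 (day 0) and 2.06 to 4.65 (day 3). This ratio was lower in every challenged sample than in every control of its own experiment. Pdgfra over Pdgfrb overlapped in both experiments, at 0.467 to 0.625 in olive oil against 0.395 to 0.758 in CCl4, and at 0.154 to 0.563 at PH day 0 against 0.313 to 0.971 at PH day 3. These ratios are descriptions and were not tested.

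**Figure D3:**
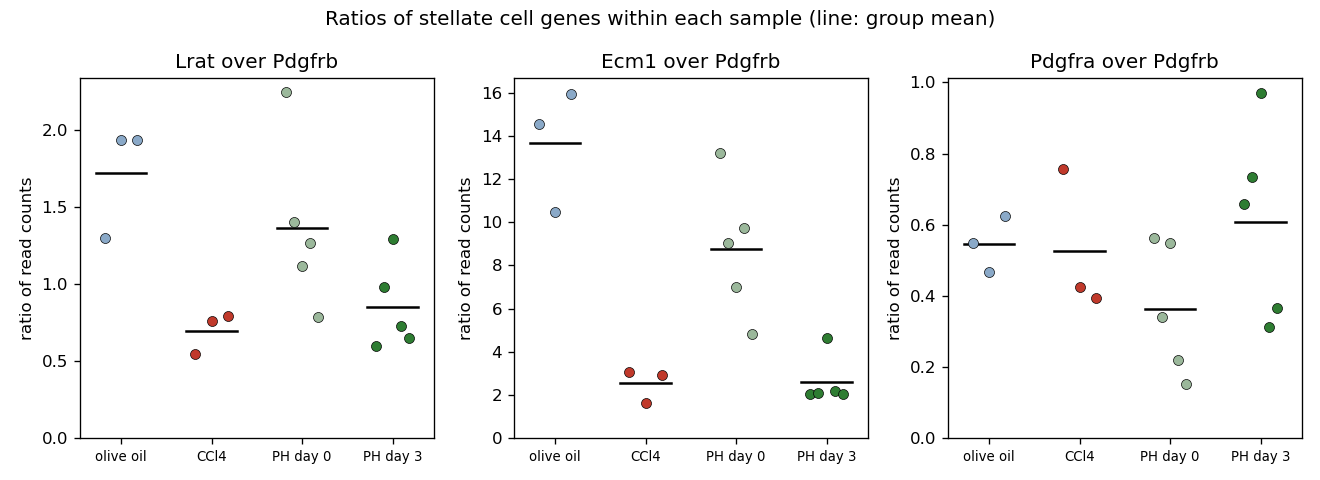
The panels plot the ratio of read counts of Lrat, Ecm1 and Pdgfra to Pdgfrb (vertical axis, no unit) in each sample (points) of the 4 groups, with the group mean as a line. Ecm1 over Pdgfrb is 1.65 to 3.07 in CCl4 and 2.06 to 4.65 at PH day 3, below all controls of the same experiment, while Pdgfra over Pdgfrb overlaps between groups.

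The 2 responses were set side by side for each member and their difference was tested in 1 edgeR fit of all 16 samples. None of the 10 members differed between the responses at an adjusted p under 0.05, where 5.33% of 11868 tested genes did. On simulated counts this test called 26% of 2-fold and 56% of 4-fold changes. A count of 0 therefore does not show that the responses were alike. DESeq2 and limma-voom also called 0 of the 10, and 1 member, Pdgfrb, had an unadjusted p under 0.05 in edgeR. Its response to CCl4 exceeded that to hepatectomy by 1.02 ± 0.40 on the log2 scale (SE, edgeR adjusted p = 0.143). For Rgs5 the difference was -0.67 ± 0.34 (SE, edgeR adjusted p = 0.295), for Dcn 0.56 ± 0.27 (SE, edgeR adjusted p = 0.272) and for Reln 1.11 ± 0.57 (SE, edgeR adjusted p = 0.317). Without CCl4 replicate 1 the Reln difference was 1.501 with an edgeR adjusted p of 0.0249, the lowest of its alternatives, which reached 0.602. The file headers place the injection and surgical samples in separate experiments, so experiment and challenge cannot be told apart here.

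**Figure D4:**
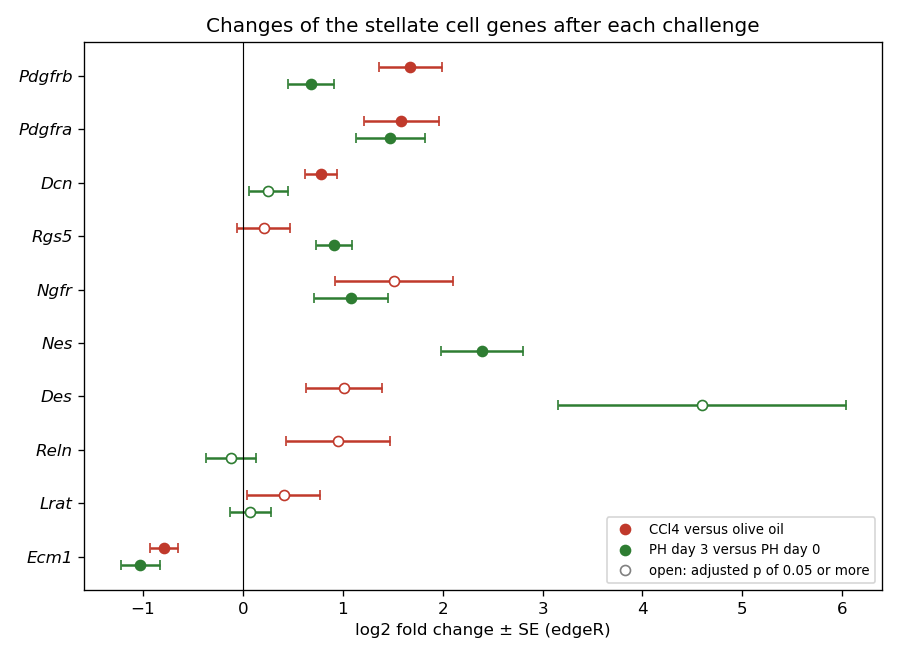
Points are log2 fold changes (horizontal axis) and bars their standard errors for each gene (vertical axis), red for CCl4 versus olive oil (n = 3 per group) and green for PH day 3 versus PH day 0 (n = 5 per group); filled points have an edgeR adjusted p under 0.05. Ecm1 lies below 0 in both, Nes after CCl4 has no point because it did not pass the filter, and Des after hepatectomy has the widest bar, at 4.59 ± 1.44.

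The order of the members was compared on CPM per kilobase of counted exon length. In olive oil, Ecm1 led at 26.6 ± 2.60, followed by Dcn at 11.6 ± 1.94 and Rgs5 at 6.67 ± 1.55 CPM per kb (SD, n = 3), with no overlap between these neighbours. The next 6, from Lrat at 1.65 ± 0.62 through Reln, Pdgfrb, Des and Ngfr to Pdgfra at 0.271 ± 0.035 CPM per kb, overlapped each with its neighbour, and Nes was lowest at 0.124 ± 0.064. At PH day 0 the same 3 genes led without overlap, with Ecm1 at 29.0 ± 7.92, Dcn at 14.2 ± 3.84 and Rgs5 at 4.84 ± 0.20 CPM per kb (SD, n = 5). In CCl4, Dcn was first at 20.4 ± 2.43 and Ecm1 second at 15.7 ± 0.77 CPM per kb, without overlap, followed by Rgs5, while Pdgfrb at 3.03 ± 0.96 overlapped its neighbour Lrat at 2.21 ± 0.95. At PH day 3, Dcn at 16.6 ± 3.01 and Ecm1 at 14.0 ± 3.28 CPM per kb overlapped, and Nes stood at 1.26 ± 0.37, next to Ngfr and Reln.

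Likeness of pattern was measured as the root mean square difference of log2(CPM + 1), each gene centred on its mean over the 16 samples. On this measure a gene with little variation is close to any other flat gene, so each gene's distance from a flat line is given beside it: 0.630 for Pdgfrb, 0.336 for Lrat and 0.523 for Ecm1. Among the members the smallest value was that of Dcn and Lrat at 0.336, no closer than Lrat is to a flat line, and Pdgfrb and Dcn followed at 0.431. Among 11867 other tested genes, the closest to Pdgfrb were Gria3, a glutamate receptor subunit, at 0.244, and Cstf3 and Prps2 at 0.307 each, against a median of 0.718 over all these genes. Closest to Lrat were Ston2 at 0.207, Parp1 at 0.232 and Tdrd7 at 0.237 (median 0.495). Closest to Ecm1 were Snapc5 at 0.244, Colec12 at 0.273 and Setd1b at 0.275 (median 0.625).

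Other genes known from stellate cells moved in both directions after CCl4. Of 19 further stellate genes, 16 were tested after CCl4, where Hgf and Steap4 were among those that rose and Vipr1 and Cxcl12 fell, and 14 after hepatectomy, where Gdf2 was among those that rose and none fell. Hgf, hepatocyte growth factor, went from 2.501 ± 1.81 to 11.1 ± 2.47 CPM after CCl4 (SD, n = 3 per group), a log2 fold change of 2.10 ± 0.45 (SE, edgeR adjusted p = 0.00826). Gdf2, which encodes BMP9, rose by 1.21 ± 0.25 after hepatectomy (log2 ± SE, edgeR adjusted p = 0.00155). The list's median log2 fold change was 0.59 after CCl4 and 0.44 after hepatectomy, and 0.08 after hepatectomy without both muscle-bearing libraries. With samples left out in turn, 0 to 2 of the list fell after CCl4, and none did when the sample left out was CCl4 replicate 2, olive oil replicate 2 or olive oil replicate 3. Steap4 was not called without olive oil replicate 1 or 3. Gfap, a further classical marker, had at most 6 counts in any group's sum and was not tested.

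Of 23 myofibroblast genes, 19 of 21 tested rose after CCl4 and 12 of 17 after hepatectomy, and none fell, with list medians of 2.59 and 1.66 on the log2 scale. Without both muscle-bearing libraries, 7 of 17 rose after hepatectomy, with a median of 1.20, and the calls of Col3a1, Col5a1, Postn, Lum and Fbn1 were lost. Leaving out 1 sample gave 8 (PH day 0 replicate 12 or 16) to 13 after hepatectomy and 16 to 20 after CCl4. After CCl4, Vim (vimentin) rose by 2.30 ± 0.25 (log2 ± SE, edgeR adjusted p = 0.000243) and Fbn1 (fibrillin-1) by 3.66 ± 0.42 (edgeR adjusted p = 0.000305). After hepatectomy, Loxl2 (a collagen cross-linking enzyme) rose by 2.70 ± 0.31 (log2 ± SE, edgeR adjusted p = 8.49e-07) and Sparc (osteonectin) by 1.46 ± 0.17 (edgeR adjusted p = 4.79e-05).

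Markers of other mesenchymal cells moved in the same samples. The 16 genes of portal fibroblasts and mesothelium summed to 10.1 to 19.6 CPM in olive oil and 34.3 to 80.0 CPM in CCl4, and at PH day 0 to 11.4 to 19.0 CPM, against 30.9 to 114 CPM at PH day 3, without overlap in either experiment. The highest sums were 114 and 65.2 CPM in the muscle-bearing PH day 3 replicates 12 and 14, and the other 3 were 30.9, 36.4 and 31.4 CPM, still above every day 0 sample. In CCl4 the 80.0 CPM was replicate 2, and replicates 1 and 3 were at 39.0 and 34.3 CPM. Eln, Fbln2 and Cd34 rose among 5 tested after CCl4, and Eln, Fbln2 and Msln among 4 after hepatectomy, with no fall. The Cd34 call was lost when CCl4 replicate 2, olive oil replicate 1 or olive oil replicate 3 was left out, and the Fbln2 call after hepatectomy was lost without both muscle-bearing libraries (log2 fold change 1.47, edgeR adjusted p = 0.0694). Msln, the mesothelial marker mesothelin, went from 0.121 ± 0.168 to 6.76 ± 4.32 CPM after hepatectomy (SD, n = 5 per group, edgeR adjusted p = 2.37e-06). Pdgfrb, Pdgfra and Dcn are also expressed in these cells, and the part of these cells in the members' changes was not tested.

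Nestin is also described in endothelial cells. Of 8 endothelial genes tested, Kdr (the VEGF receptor) and Clec4g (a lectin of sinusoidal endothelium) fell after hepatectomy, by 0.84 ± 0.14 and 0.62 ± 0.16 (log2 ± SE, edgeR adjusted p = 0.000116 and 0.00669), and Lyve1 (a hyaluronan receptor) rose after CCl4 by 2.60 ± 0.65 (edgeR adjusted p = 0.0200). The Lyve1 call was lost without olive oil replicate 1 or 2 and with limma-voom (adjusted p 0.0737 to 0.0855, in a range from 5.01e-07). The other endothelial genes were not called in either experiment. The list's median log2 fold change was 0.06 after hepatectomy and 0.26 after CCl4. The list summed to 165 to 208 CPM at PH day 0 and 124 to 199 CPM at PH day 3. The part of endothelial cells in the Nes result was not tested. All 6 division genes tested rose in both experiments.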

How the data were processed

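Per the file headers, the deposited values are raw read counts for each gene, with 1 table for each sample, and nothing else was used. featureCounts 1.6.2 assigned reads to exons of Ensembl release 95 genes, reverse-stranded, with no option for multi-mapping or multi-overlapping reads. The submitters' processing notes add STAR 2.5.1, Subread and the build GRCm38, and trimming settings are not given in the sources used here. Symbols from the gene annotation matched 54723 of 54838 identifiers. Groups and PH replicate numbers came from the labels, while injection replicate numbers only name samples.

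Tests were made in edgeR 4.0.16 under R 4.3.3: TMM factors, filterByExpr with a minimum count of 10 and total of 15, the robust quasi-likelihood F test, and Benjamini-Hochberg adjustment over every gene tested with a threshold of 0.05. Each experiment was fitted alone, and 1 fit of all 16 samples gave the difference between their responses. Depth was 2795909 to 8647503 counts per sample, and the floor of 3 counts covers counting error only. No 2 count files were identical. CPM uses TMM factors over all samples.

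Named genes were the 10 members, the 2 genes of smallest adjusted p among those called in each other list and comparison, all PDGF ligands and reelin receptors, and the 3 genes most like Pdgfrb, Lrat and Ecm1. Of these, the genes of lists that bear on a member are described. A gene that the rule names is not reported here. Steap4, Vipr1, Cxcl12, Rarb, Rbp4, Aldh1a1 after CCl4, Cd34, Kcnj8, Mylk after hepatectomy, Gfap and the 5 myofibroblast genes whose calls were lost were named after their values were seen. The members and lists were chosen with earlier results of these data known. Alternatives were RLE size factors, library size only, DESeq2 1.42.0, limma-voom (limma 3.58.1), no filter, a filter of 1 CPM, an adjusted p under 0.01, all 16 samples in 1 fit, the replicate number as a block, each sample left out and both libraries with muscle transcripts left out. The fits were checked on simulated counts with known changes. Python 3.11.15 (pandas 2.3.3, numpy 2.4.6, matplotlib 3.10.9) served for tables and plots.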

Additional observations from a re-analysis of the deposited data

Results flagged for a closer look

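Des in PH day 3 replicate 12, at 188 CPM, lay far above the other 4 samples of its group, with a gap to the next sample of 0.858 of the group's range. Of 20 groups of 5 samples examined (10 genes at 2 times), this was the only one, and chance flags about 1 in 20. The same library held 2508 CPM of the 6 skeletal muscle genes.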

How the results depend on the processing

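Depth and sample number limit these results: Nes, Ngfr and Pdgfra rest on few counts (10 in all for Nes in olive oil), and with 3 samples per injection group 1 library often decides a call. Of the members' results, 515 values kept their direction and side of the threshold, 25 lost a call, 11 gained one and 15 changed sign. For the other named genes these numbers were 703, 86, 5 and 2. The 515 include results that were not called and stayed so. A call could be lost only for the 4 members called after CCl4 and the 6 called after hepatectomy. Leaving out 1 sample gave 3 to 7 called members after CCl4 (4 with all samples), 7 of them without CCl4 replicate 1, and 4 to 6 after hepatectomy (6 with all samples). It gave 0 to 1 for the difference, the 1 being Reln without CCl4 replicate 1. The same fits called, over all genes, 1492 to 3513 of 11498 to 11816 tested after CCl4, the most without CCl4 replicate 1. After hepatectomy they called 1599 to 1810 of 10622 to 10897, and for the difference 384 to 931 of 11803 to 12291. Without both muscle-bearing libraries 3 members were called after hepatectomy, in a fit where 837 of 10887 tested genes rose and 645 fell.

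Over all genes, an adjusted p under 0.01 left 1258 of 2599 calls after CCl4, 1090 of 1871 after hepatectomy and 255 of 633 for the difference. Leaving out 1 sample gave 1492 to 3513 calls after CCl4 and 384 to 931 for the difference, the fewest in both without olive oil replicate 3. Scaling by library size alone moved the median log2 fold change of all genes to 0.457 after CCl4, 0.131 after hepatectomy and 0.305 for the difference, and the share of calls that were higher to 87.5%, 78.9% and 75.9%, against 49.2%, 54.8% and 27.5% with TMM.

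Changes of sign occurred in results that were not called. With samples left out in turn, the log2 fold change ran from -0.12 to 0.42 for Rgs5 after CCl4, from -0.29 to 0.14 for Reln and -0.019 to 0.16 for Lrat after hepatectomy. For the difference it ran from -0.22 to 0.37 for Pdgfra, -0.59 to 0.33 for Nes, -0.0046 to 0.72 for Lrat and -0.64 to 0.12 for Pdgfa. Library size alone gave 0.00167 for Reln after hepatectomy, 0.19 for the Nes difference and 0.14 for the Pdgfa difference, and limma-voom gave 0.011 for Reln after hepatectomy and -0.012 for the Pdgfra difference. The cause was not tested.

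PH samples share the numbers 12 to 16 across days, and no label says what a number marks. The deviations of same-numbered samples correlated at -0.0482 to 0.112, and not every sample correlated best with its own number, so the numbers were not taken to pair the samples. With the replicate number as a block, edgeR called 1034 genes higher and 830 lower after hepatectomy, against 1026 and 845 without it, and 5 members in place of 6, Ngfr being lost (adjusted p = 0.0737).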
